A study of Mus musculus with 8 samples.

Results

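Insulin and insulin-like growth factor 1 act on cells through a pair of related receptor tyrosine kinases, and the 8 genes described here encode those receptors and the first proteins below them. They are Insr and Igf1r, the insulin receptor and the type 1 IGF receptor; Irs1 and Irs2, the insulin receptor substrates; Pik3ca and Pik3r1, a catalytic and a regulatory subunit of phosphoinositide 3-kinase (PI3K); and Akt1 and Akt2, serine/threonine kinases. The members were taken as every array probe whose transcript accession belongs to 1 of these genes in RefSeq, whatever its signal. Probes were matched for 7 of the 8 genes, 17 probes in all, and all 17 probes were above the filter on dim signals. Irs2 had no probe matched in this way and was not analysed here. The 7 genes were part of 14137 tested, out of 18749 with a matched probe.

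The No. 4 mammary glands came from 4 wild-type (WT) dams and 4 dams lacking Th-POK (KO), the zinc finger transcription factor encoded by Zbtb7b. All were females of the C57/Bl6 strain at lactation day 1, each on an Agilent 1-colour array of its own. The methods name no promoter or Cre that would limit the knockout to the gland. Dams were age-matched and fed standard chow, and the labels name no treatment. The comparison bears on how loss of Th-POK relates to insulin signalling genes in the gland just after birth. Whole gland was measured, so a gene's lower signal through fewer cells of a type cannot be told apart from less RNA in each cell.

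When a ligand binds, the receptors phosphorylate themselves and then the IRS adaptors, which recruit PI3K through its regulatory subunit. PI3K makes a membrane lipid that brings AKT to the membrane, where partner kinases activate it, and AKT then phosphorylates many proteins. FOXO transcription factors are among them and are kept out of the nucleus when AKT is active, while growth and lipid synthesis are promoted through mTOR. In the lactating gland, insulin and IGF1 are known to promote survival of secretory cells and the making of milk lipid and protein. The arrays measure messenger RNA, so they carry no information on phosphorylation or protein amount.

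The share of probes well above background was 66.9% to 75.3% in WT and 66.8% to 70.9% in KO, with 0 saturated spots, and precision is limited by how few arrays there are. The WT arrays shared slide 1 and scan 1 and the KO arrays slide 2 and scan 2, so genotype and slide cannot be told apart. Zbtb7b had log2 signals between 9.90 and 10.42 in WT and was not well above background on any KO array, which put it at least 81.5-fold lower in KO (adjusted p = 5.707e-09, limma). For that bound the KO level was taken, array by array, as the dimmest signal still called well above background. Markers were counted at an adjusted p under 0.05 (limma), at which 7.53% of all genes tested were higher in KO and 8.96% lower. Of 12 luminal epithelial markers, 4 were higher in KO and 0 lower, and their mean log2 signal was 13.15 to 13.69 in WT and 13.86 to 14.00 in KO. Elf5 and Prlr, of the luminal list, had log2 differences the other way (-0.35 and -0.20, KO minus WT) that did not pass. Of 10 basal markers, 1 was lower, with means of 12.33 to 12.85 in WT and 12.25 to 12.54 in KO. Of 8 neutrophil markers tested, 3 were higher, with means of 6.95 to 7.71 in WT and 8.85 to 9.89 in KO. Of those 3, Camp and Ngp were not well above background on any WT array and entered the test through KO alone. Over the other 6 markers, 1 was higher (Ltf), with means of 8.39 to 9.50 in WT and 9.68 to 10.71 in KO. The remaining 5 did not pass, with log2 differences from 0.08 (Csf3r) to 2.19 (S100a9). Ltf had a mean log2 signal of 16.27 in WT, where Mpo had 5.36 and Csf3r 4.95. Which cells the Ltf RNA came from was not tested, so these means cannot be read as neutrophil content alone. Of 11 adipocyte markers, 2 were higher, with means of 12.62 to 13.27 in WT and 13.19 to 13.44 in KO. Fibroblast markers had 1 of 8 higher, with means of 13.14 to 13.44 and 13.43 to 13.95, T cell markers 2 of 7 lower, with means of 6.14 to 7.27 and 6.18 to 6.48, and B cell markers 1 of 4 higher, with means of 5.74 to 6.29 and 5.84 to 6.42. Of 9 macrophage and 9 endothelial markers, 0 passed the test at an adjusted p of 0.05 by limma, and 0 macrophage and 1 endothelial marker had an unadjusted p under 0.05. Macrophage means were 10.07 to 10.36 in WT and 9.85 to 10.50 in KO, and endothelial means 10.08 to 10.22 and 9.94 to 10.31. The part of these marker levels in the results below was not tested.

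The DNA before the annotated starts of Igf1r, Akt1 and Irs1 is shown. Of these, Irs1 did not differ between the genotypes at an adjusted p under 0.05 (0.1179, limma). Each line gives the 250 bases upstream of a RefSeq start (GRCm38.p6), read 5′ to 3′ in the direction of the gene. Capitals mark, on either strand, the letters CACGTG (an E-box), TGTTTAC (a FOXO core) or GGGCGG (a GC box). Igf1r lies on the plus strand at chr7:67952007-67952256, Irs1 on the minus strand at chr1:82291440-82291689. Akt1, on the minus strand, has windows at both annotated starts, chr12:112674885-112675134 and chr12:112674277-112674526.
Igf1r: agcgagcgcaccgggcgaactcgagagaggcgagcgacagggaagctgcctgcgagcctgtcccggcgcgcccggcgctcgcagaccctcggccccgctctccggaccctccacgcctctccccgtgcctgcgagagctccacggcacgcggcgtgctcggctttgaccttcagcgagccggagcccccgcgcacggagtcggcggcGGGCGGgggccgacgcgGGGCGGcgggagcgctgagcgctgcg
Irs1: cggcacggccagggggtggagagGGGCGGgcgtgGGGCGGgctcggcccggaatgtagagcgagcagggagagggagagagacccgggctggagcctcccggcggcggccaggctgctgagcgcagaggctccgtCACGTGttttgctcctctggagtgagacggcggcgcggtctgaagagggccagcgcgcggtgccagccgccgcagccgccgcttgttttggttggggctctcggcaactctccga
Akt1, start 1: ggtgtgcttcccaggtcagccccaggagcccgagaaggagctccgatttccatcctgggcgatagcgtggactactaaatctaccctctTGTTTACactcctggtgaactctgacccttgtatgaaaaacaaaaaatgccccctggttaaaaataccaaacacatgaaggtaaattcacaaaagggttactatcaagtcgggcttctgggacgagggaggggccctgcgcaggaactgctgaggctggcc
Akt1, start 2: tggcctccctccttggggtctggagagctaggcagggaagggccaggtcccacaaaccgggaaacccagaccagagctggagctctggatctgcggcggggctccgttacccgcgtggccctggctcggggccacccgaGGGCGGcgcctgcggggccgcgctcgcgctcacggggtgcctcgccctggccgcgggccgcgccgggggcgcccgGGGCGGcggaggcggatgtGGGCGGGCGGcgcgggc

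The Igf1r window held 2 GC boxes, and its GC content was 77.6%. The Irs1 window (72.4% GC) held 2 GC boxes and 1 E-box, whose first base lay 115 bases before the start. At Akt1 the windows differed in kind, since start 1 (52.0% GC) held 1 FOXO core and 0 GC boxes, while start 2 (78.4% GC) held 4 GC boxes, a pair of which overlap, and 0 FOXO cores. Over the 32851 RefSeq windows of this length, a GC box was found in 32.7%, an E-box in 6.02% and a FOXO core in 3.17%. Each match is a description of letters in the window.

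Of the 7 members tested, 2 differed between the genotypes at an adjusted p under 0.05, which is what "called" means here. Igf1r was higher in KO and Akt1 was lower. Over all genes, 16.5% were called, 8.96% lower and 7.53% higher in KO. The arrays of the genotypes did not overlap for 3 members (Igf1r, Pik3ca and Akt1), a feature of 24.1% of all genes tested. Counted by probe, 4 of the 17 member probes were called, 3 of Igf1r and 1 of Akt1, beside 14.8% of the 20838 probes tested. These shares lie not far from the background, so the members are described gene by gene. The plot of log2 signal on each array shows all 7.

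**Figure D1:**
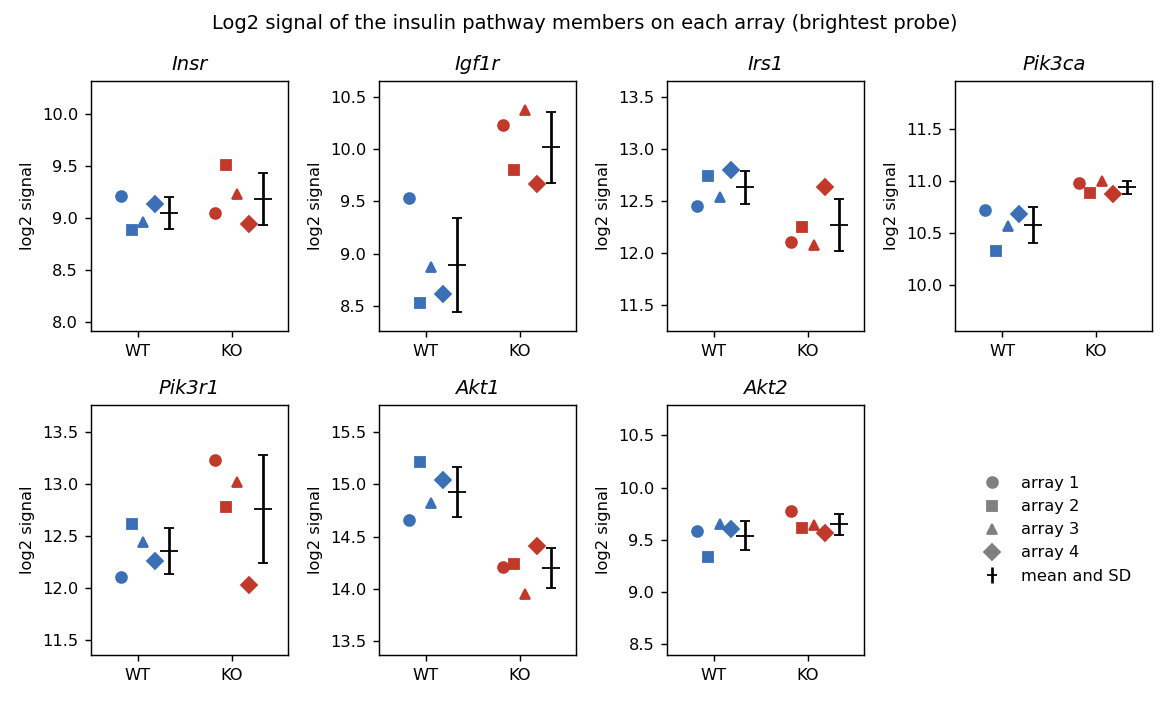
Log2 signal (vertical axis, the same span in each panel) of the brightest probe of 7 members on 4 WT arrays (blue) and 4 KO arrays (red), with symbols for the replicate number and black marks for mean and SD. Igf1r and Pik3ca sit higher in KO and Akt1 lower, with no overlap, while the genotypes overlap for Insr, Irs1, Pik3r1 and Akt2.

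Insr encodes the receptor that binds insulin itself. Its log2 signals were 9.21, 8.89, 8.96 and 9.14 in WT and 9.05, 9.51, 9.23 and 8.94 in KO, so the groups overlapped. The means were 9.05 ± 0.15 and 9.18 ± 0.25 (SD, n = 4 each), a log2 difference, KO minus WT, of 0.13 with a standard error of 0.15 (adjusted p = 0.5388, limma). The 95% confidence interval ran from -0.20 to 0.47, or from 0.87-fold to 1.38-fold. The dimmer Insr probe, A_52_P6490, had a difference of -0.01.

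Igf1r encodes the receptor for IGF1, a paralogue of Insr with which it can form mixed receptors. On its brightest probe (A_51_P474538) the WT arrays had log2 signals of 9.53, 8.53, 8.87 and 8.61, and the KO arrays 10.23, 9.80, 10.38 and 9.67. The lowest KO array lay above the highest WT array, WT1, so KO exceeded WT in any pairing of the arrays. The means were 8.89 ± 0.45 in WT and 10.02 ± 0.34 in KO, a log2 difference of 1.13 (SE 0.25), or 2.19-fold (95% CI 1.48 to 3.25, adjusted p = 0.02357). The other probes gave differences of 1.02 (A_51_P318365) and 0.98 (A_52_P634111), with p-values adjusted over probes of 0.03896 and 0.03861. The direction held with each array left out, but the adjusted p rose above 0.05 without WT2 (0.06485), WT3 (0.05693), KO1 (0.06271) or KO3 (0.06899), and with the methods' t-test (0.05658).

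The receptors were also compared with each other within each array, as Insr minus Igf1r, which asks whether the genotype difference is the same for both. This quantity was 0.16 ± 0.37 in WT and -0.84 ± 0.42 in KO (SD, n = 4 each), a difference of -1.0. An exact two-sided permutation test over the 70 relabelings of the arrays gave p = 0.05714, and 0.08571 after adjustment over the 3 pairs of members compared. Here 1 array mattered, since without KO2, whose Insr signal was the highest, the difference was -1.18 (adjusted p = 0.04286 by the same exact test). The unequal shift of the receptors therefore did not pass the threshold with all 8 arrays.

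Irs1, the adaptor that links the receptors to PI3K, had signals of 12.45, 12.74, 12.54 and 12.80 in WT and 12.11, 12.25, 12.08 and 12.63 in KO. KO1, KO2 and KO3 lay below every WT array, and KO4 lay inside the WT range. The means of 12.63 ± 0.16 and 12.27 ± 0.25 differed by -0.36 (SE 0.15), or 0.78-fold (95% CI 0.61 to 0.98). The adjusted p was 0.1179 by limma, so Irs1 was not called. KO was the lower in 4 of 4 pairs of the same replicate number. Its dimmer probe, A_52_P171212, had signals of 7.79, 8.41, 8.07 and 8.08 in WT and 7.54, 7.40, 7.43 and 8.02 in KO. That probe showed the same picture, 3 KO arrays below all WT arrays and KO4 among them, with a difference of -0.49 (p adjusted over probes 0.09395). Without KO4 the brighter probe differed by -0.48 with an adjusted p of 0.04042.

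Pik3ca encodes the alpha catalytic subunit of PI3K, the form that insulin signalling mostly uses. Its signals were 10.72, 10.33, 10.57 and 10.68 in WT and 10.98, 10.89, 11.00 and 10.88 in KO, with every KO array above every WT array. The KO arrays lay close together (10.94 ± 0.06) against 10.58 ± 0.17 in WT. The log2 difference was 0.36 (SE 0.11, 95% CI 0.11 to 0.61), or 1.28-fold, with an adjusted p of 0.05769, so it just missed the threshold. It was 0.41 without WT1, with an adjusted p of 0.04576. The other probe differed by 0.35, and on it WT1 (8.97) overlapped the KO arrays.

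Pik3r1 encodes the regulatory subunit that binds phosphorylated IRS proteins and holds the catalytic subunit stable. Its signals were 12.11, 12.62, 12.44 and 12.26 in WT and 13.23, 12.78, 13.02 and 12.03 in KO. KO1, KO2 and KO3 were above all WT arrays and KO4 below all of them, which gave an SD of 0.52 in KO against 0.22 in WT. The difference of 0.40 (SE 0.25, 95% CI -0.17 to 0.98) was not called (adjusted p = 0.2754), and without KO4 it was 0.65 (adjusted p = 0.03923). All 4 Pik3r1 probes differed in the same direction, by 0.29 to 0.59. Pik3ca minus Pik3r1 within an array was -1.78 ± 0.39 in WT and -1.83 ± 0.48 in KO (exact permutation p = 0.8857), so no shift of catalytic against regulatory subunit was detectable.

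On the brightest probes of Irs1 and Pik3r1, KO4 thus differed from the other KO dams. Its signals lay within or below the WT range rather than on the side of KO1, KO2 and KO3. Not every Pik3r1 probe set KO4 alone apart. On A_52_P407239, KO2 (11.97) also lay within the WT range (11.27 to 12.25), and on A_52_P235476 KO1 (10.80) did (10.12 to 10.98). For Igf1r and Akt1 the fit without KO4 kept the call (adjusted p = 0.02622 and 0.02416).

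Akt1 encodes the AKT isoform most linked to cell growth and survival, and in the mouse gland to the metabolic switch at the onset of lactation. The brightest probe, A_51_P237553, is printed in 10 spots on each array, which were averaged. Its signals were 14.66, 15.22, 14.82 and 15.04 in WT and 14.21, 14.24, 13.95 and 14.41 in KO. The groups did not overlap, so KO was the lower in any pairing of the arrays. The means of 14.93 ± 0.24 and 14.20 ± 0.19 differed by -0.73 (SE 0.15), or 0.60-fold (95% CI 0.47 to 0.77), with an adjusted p of 0.02057. The second Akt1 probe, A_52_P418014, had 8.89, 9.85, 9.41 and 9.47 in WT and 9.06, 8.37, 8.13 and 8.85 in KO. It fell short of the threshold, with a difference of -0.80 and a p adjusted over probes of 0.06299, and its KO1 and WT1 arrays overlapped. Without WT2, KO1 or KO3, the brightest probe also missed the threshold, at adjusted p = 0.0517, 0.05464 and 0.06125.

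Akt2, the isoform most linked to glucose uptake under insulin, had signals of 9.58, 9.33, 9.65 and 9.60 in WT and 9.78, 9.61, 9.64 and 9.56 in KO. The groups overlapped, and the difference was 0.11 (SE 0.11, 95% CI -0.13 to 0.35, adjusted p = 0.4889), with the same 0.11 on the other probe. As a ratio the interval ran from 0.91-fold to 1.28-fold. Within an array, Akt1 minus Akt2 was 5.39 ± 0.36 in WT and 4.55 ± 0.23 in KO, a change of -0.84 with every KO array below every WT array. The exact permutation p was 0.02857, where 0.0286 is the smallest that 4 against 4 arrays allow, and 0.08571 after adjustment over 3 pairs. Without KO2 the change was much the same, -0.86, and the adjusted p was 0.04286. That drop came through the adjustment, because Insr minus Igf1r had a smaller p in the same fit. It does not mark a stronger shift of Akt1 against Akt2. Only the change in this quantity is interpretable, since the signals of different probes are not on 1 scale of abundance.

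**Figure D2:**
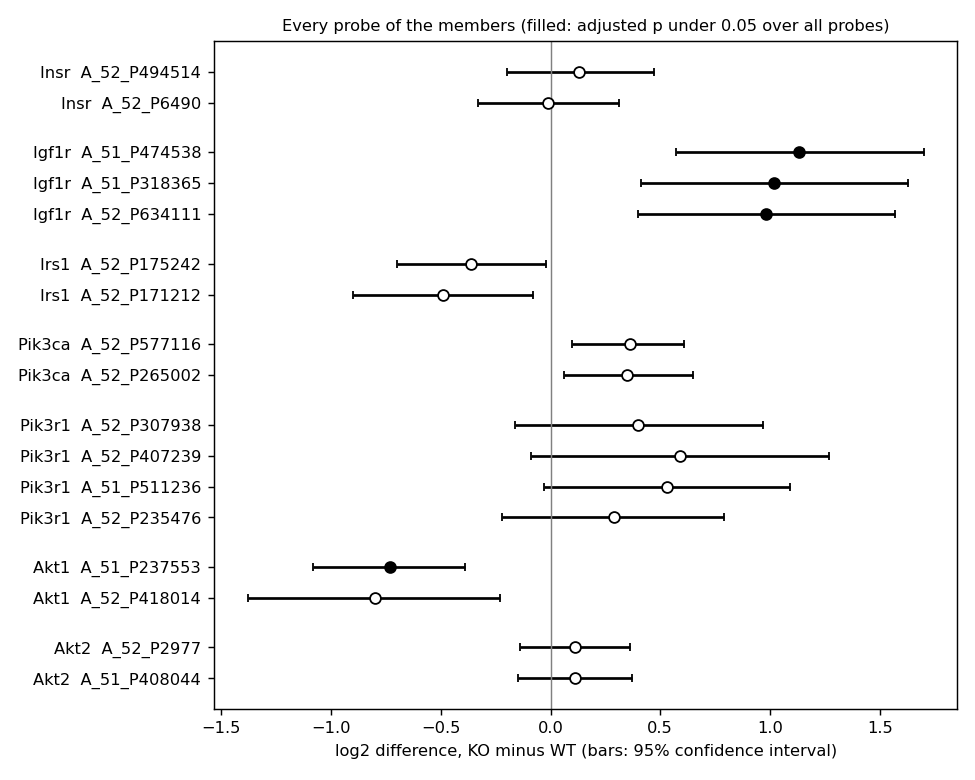
Log2 difference, KO minus WT (horizontal axis), with its 95% confidence interval for each of the 17 probes of the 7 members, filled where the p adjusted over all probes was under 0.05. The 3 Igf1r probes lie between 0.98 and 1.13, the 2 Akt1 probes at -0.73 and -0.80, and the intervals of Insr, Akt2 and Pik3r1 cross 0.

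The plot of all 17 probes puts the members side by side. Probes of 1 gene agreed in direction for 6 of the 7 genes, the exception being Insr, whose differences lay on either side of 0.

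The other genes of the pathway were taken from 5 lists, which hold 106 different genes (Cdkn1b stands in a pair of lists), of which 100 were tested. In total 15 genes were higher in KO, 2 were lower, and 17.0% were called, near the 16.5% over all genes. By direction the shares were not near, since 7.53% of all genes were called higher and 8.96% lower. This split was not tested as a set. Their median log2 difference was 0.11, against -0.02 over all genes tested.

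Among adaptors and receptor regulators, 3 of 23 were higher in KO and 0 lower (median 0.19). Without KO3, 1 was higher, in a fit that called 515 genes in all, against 2331 with every array. Enpp1, a membrane enzyme that binds and inhibits the insulin receptor, had 9.89 to 10.28 in WT and 10.58 to 10.94 in KO, a difference of 0.70 (SE 0.13, adjusted p = 0.01514). Gab1, a docking protein that also recruits PI3K, had 7.78 to 8.70 in WT and 8.78 to 9.24 in KO, a difference of 0.86 (SE 0.21, adjusted p = 0.02929). The related docking gene Gab2 was not well above background on any WT array and was on all 4 KO arrays. It thus entered the test through KO alone, although it is 1 of the 3 counted here. Its adjusted p of 0.006693 (limma) rests on WT signals not well above background. On these background-subtracted signals Gab2 was at least 1.56-fold higher. That size depends on the background correction, since with normexp its log2 difference was 0.21 in place of 1.04, with an adjusted p of 0.06733. Grb10, an adaptor that restrains both receptors, had a difference of 0.24 and an adjusted p of 0.2472. Calls were lost for Enpp1 without KO3 (0.05152) and for Gab1 with the methods' t-test or without WT2, WT3, KO1, KO3 or KO4 (0.05065 to 0.08083).

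Of the other PI3K genes, 3 of 13 were higher in KO and 0 lower (median 0.09). Pik3ip1, which encodes a membrane protein known to bind and inhibit the PI3K catalytic subunit, had 8.97, 8.45, 9.06 and 8.82 in WT and 11.47, 11.02, 10.71 and 9.68 in KO. Its difference was 1.90 (SE 0.35), or 3.72-fold, with an adjusted p of 0.01519, and it stayed called in all 16 alternatives run. Here KO4 was the KO array nearest to WT. This did not hold for every called gene, since for Pik3cb, described below, KO4 was the KO array farthest from WT (10.55). Pik3c2a, a class II PI3K, differed by 0.65 (SE 0.11, adjusted p = 0.01411), and it too was called in all 16 alternatives. Pik3cb, the beta catalytic subunit, had 9.31 to 9.89 in WT and 9.90 to 10.55 in KO, a difference of 0.71 (SE 0.17, adjusted p = 0.03102). That call was lost with the methods' t-test and without WT2, WT3, KO2, KO3 or KO4 (0.05262 to 0.08203).

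Phosphatases and inhibitors of AKT had 2 of 18 higher in KO and 0 lower (median 0.03). Phlpp2, a phosphatase that acts on AKT, differed by 0.72 on its brightest probe (SE 0.11, adjusted p = 0.009693). Averaged over its probes, the adjusted p of Phlpp2 was 0.7317, so its probes disagreed. Them4, whose product binds AKT and limits its phosphorylation, differed by 0.47 (SE 0.13, adjusted p = 0.04495), and leaving out any array but KO1, dropping the filter, or the methods' t-test took the adjusted p to between 0.059 and 0.111.

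Of AKT's partner kinases and substrates, 1 of 25 was higher and 1 lower (median 0.05). When the fit was blocked by replicate number, 2 were higher and 4 lower, without WT1 the counts were 2 and 3, without KO4 they were 0 and 2, and without KO3 both were 0. Over all genes these fits called 2762, 3070, 2282 and 515, in the same order, against 2331 in the main fit. Sgk1, a kinase related to AKT and activated through the same lipid, had 13.31, 13.92, 13.06 and 13.83 in WT and 12.50, 12.51, 11.71 and 11.73 in KO. Its difference was -1.42 (SE 0.27), or 0.37-fold, with an adjusted p of 0.0171, and of 16 alternatives only the fit without KO3 lost that call (0.0526). Foxo6, a FOXO factor, was higher by 1.26 (SE 0.33, adjusted p = 0.03767), a call lost with no filter, with the methods' t-test and without WT2, WT3, WT4, KO2, KO3 or KO4 (0.05819 to 0.09937). Pdpk1, the kinase that activates AKT, differed by 0.11 (adjusted p = 0.5595), Foxo1 by 0.15 (0.689) and Foxo3 by 0.33 (0.3205).

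FOXO target genes, a list drawn from textbook knowledge of other tissues, had 6 of 22 higher and 1 lower, with a median difference of 0.60. That is 31.8% called, beside 16.5% of all genes. Gadd45a, a growth arrest gene, had 8.58, 7.67, 8.26 and 8.17 in WT and 9.87, 9.33, 9.40 and 8.94 in KO, a difference of 1.21 (SE 0.24, adjusted p = 0.01832). Sesn3, a stress protein that restrains mTOR, differed by 1.04 (SE 0.24, adjusted p = 0.02794). Bcl2l11, the cell death gene for BIM, differed by 0.84 (SE 0.20, adjusted p = 0.02901), and Gabarapl1, of the autophagy machinery, by 1.03 (SE 0.25, adjusted p = 0.03116). The remaining higher genes were Ccng2 (1.38, adjusted p = 0.03871) and Ppargc1a (1.26, adjusted p = 0.04535), which fall outside the naming rule and were picked after their values were seen. Sod2, the mitochondrial superoxide dismutase, was lower by log2 signal, with 14.91 to 15.40 in WT and 14.45 to 14.84 in KO (difference -0.56, SE 0.14, adjusted p = 0.0328). Over the 16 alternatives the call was lost in 1 for Gadd45a, 4 for Sesn3, 6 for Bcl2l11, 8 for Gabarapl1, 8 for Ccng2, 10 for Ppargc1a and 6 for Sod2. The count varied with the arrays in the fit. Without KO3 it was 0 of 22 in either direction, without WT2 or KO1 it was 1 higher and 0 lower, and without WT3 or KO2 it was 2 higher. It was also 1 higher and 0 lower by the methods' t-test. Mean signals of the luminal and neutrophil markers lay higher on every KO array than on any WT array, although most of those markers were not called, and their part in these counts was not tested.

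**Figure D3:**
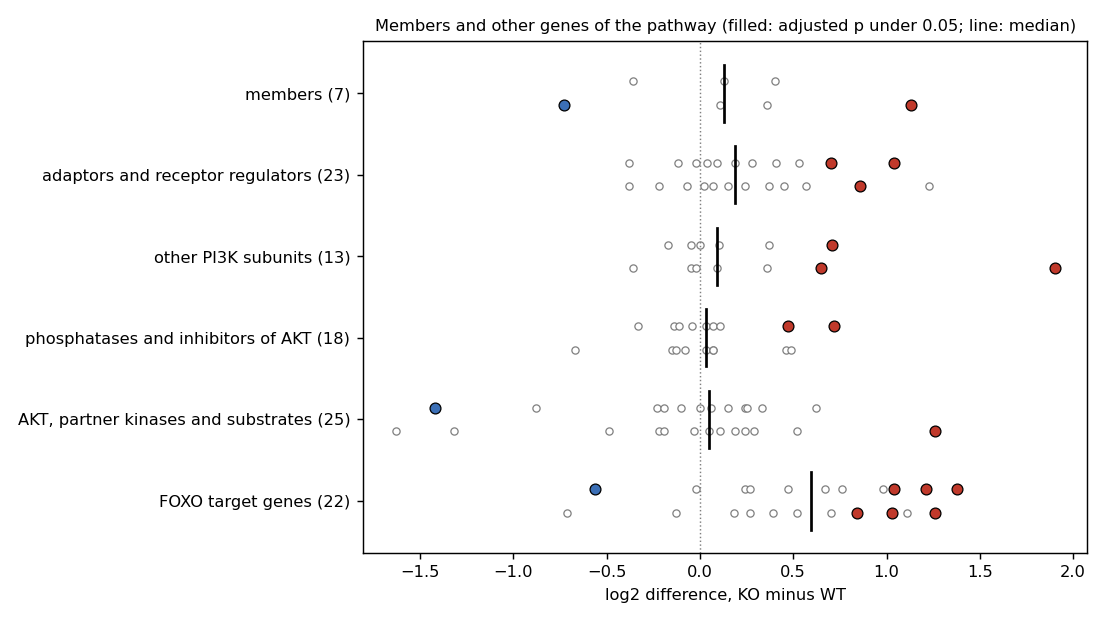
Log2 difference, KO minus WT (horizontal axis), of each gene tested among the members and in 5 lists of other pathway genes, with the number tested in brackets, a line for each median, and filled points where the adjusted p was under 0.05 (red higher, blue lower in KO). Most lists centre near 0, with medians from 0.03 to 0.19, while the FOXO target genes have a median of 0.60.

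Genes whose log2 signal ran most like each member's over the 8 arrays were found by Pearson correlation, a description that includes the genotype difference. For Igf1r they were Serac1 (r = 0.993), Gadd45b (0.991) and Specc1l (0.990), and after the genotype means were removed these were 0.975, 0.977 and 0.973. The genes were picked for the highest r on these same 8 arrays, so the later values are no independent check. For Akt1 they were Ctrb1 (0.996), Tmprss3 (0.995) and Acr (0.992). For Irs1 they were Pdhb, a subunit of pyruvate dehydrogenase (0.993), Eif4g1, a translation initiation factor (0.992), and Dnajc6 (0.990). For Pik3ca they included Csnk1g3 and Cyp2d22, both at 0.996. Insr had lower values, with Selenbp2 (0.970), Selenbp1 (0.962) and Tmprss2 (0.962), as did Akt2 with Nfkbil1 (0.957), Ankrd37 (0.956) and Tcp11l1 (0.945). Pik3r1 had Aldh3b1 (0.959), Fbln1 (0.946) and Slc25a37 (0.935).

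**Figure D4:**
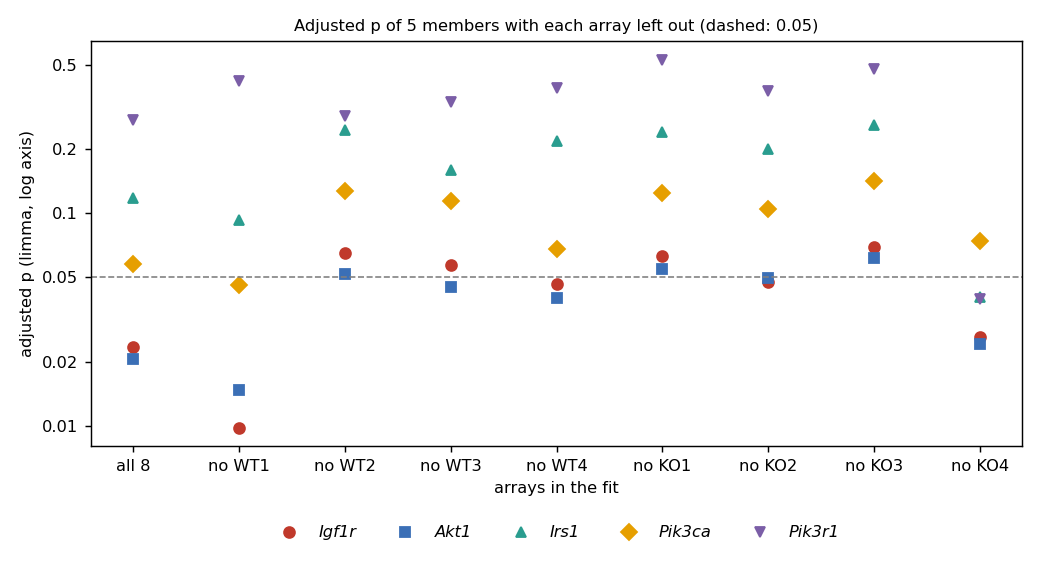
Adjusted p from limma (vertical log axis) for 5 members with all 8 arrays and with each array left out in turn (horizontal axis), the dashed line at 0.05. Igf1r and Akt1 are below the line with all arrays and cross it without WT2, KO1 or KO3, and Igf1r also without WT3. Irs1 and Pik3r1 drop below it only without KO4, and Pik3ca only without WT1.

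The plot of adjusted p with each array left out shows how far these values moved. Igf1r ran from 0.00979 to 0.06899 and Akt1 from 0.01475 to 0.06125, while Irs1 ran from 0.04042 to 0.2604, Pik3ca from 0.04576 to 0.1412 and Pik3r1 from 0.03923 to 0.5273. Insr ran from 0.3161 to 0.9174 and Akt2 from 0.4215 to 0.8223. Some calls were lost with the difference unchanged, at 1.13 for Igf1r without WT3 and -0.73 for Akt1 without KO1. Those fits called 983 and 756 genes over the whole array, against 2331 with all arrays. A lost call therefore does not by itself show that a difference rests on 1 dam.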

How the data were processed

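Gland RNA of 4 WT and 4 KO dams, taken on lactation day 1, was measured on Agilent 4x44K 1-colour mouse arrays, 1 dam an array. The authors deposited the scanner output, spot intensity after background subtraction by Agilent Feature Extraction 10.7 (version per the submitters' notes), and a table of log2 values that they had quantile-normalized. Background-subtracted intensities were set to log2 and quantile-normalized over the 8 arrays in R 4.3.3. Control spots and outlier-marked spots (64 to 100 per array) were left out, and spots of a probe averaged. Of 41174 probes, 27479 were matched by transcript accession to 1 RefSeq symbol (GRCm38.p6), giving 18749 genes. A gene was represented by its brightest probe among those that every array of WT, of KO or of both measured well above background. Genotypes were compared with limma 3.58.1 (lmFit, eBayes) and Benjamini-Hochberg adjustment over 14137 genes, with a threshold of 0.05. Pairs of members were compared by exact permutation.

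Irs2 had no matched probe, so 3 of 4 planned pairs were run. Named genes are all members, Zbtb7b, up to 4 called genes with the smallest p per list and direction, and Pdpk1, Foxo1, Foxo3, Grb10 and Pik3cb. A few results that the rule covers are not reported here. Members and lists were chosen with earlier results of these data known. Deviations from the genotype means correlated between WT and KO arrays of the same replicate number (r = 0.22, 0.16, 0.30 and 0.28). The mean for other numbers was -0.08, but centring on the genotype means ties it to those values. It is therefore no independent baseline. Pairing by number was assumed and not tested, and the blocked value is given where it changes a call. What a number shares is not given in the sources used here. The code was tested on simulated data with known changes. Alternatives were 75th percentile scaling, normexp background correction (offset 50) on median spot signals, the deposited table, outlier spots kept, no filter, the mean of a gene's probes, the replicate block, the methods' t-test and leaving out each array. Normexp on mean signals, as planned, was replaced by median signals, chosen after seeing the data, and so were counts of the pathway lists under each alternative.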

Additional observations from a re-analysis of the deposited data

Results flagged for a closer look

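Among 88 groups of 4 arrays examined, over the members and named pathway genes, 4 had an array far from the other 3, and chance alone sets apart about 1 group in 20. Gab1 on KO2 was at 8.78, with the other KO arrays at 9.20 to 9.24. Sesn3 on WT2 was at 9.24, with the other WT arrays at 10.01 to 10.12. Pdpk1 on KO1 was at 10.24, with the other KO arrays at 10.52 to 10.56. Foxo1 on KO2 was at 13.32, with the other KO arrays at 12.33 to 12.44. No array of a member was set apart in this way.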

How the results depend on the processing

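The 7 members kept their direction on the brightest probe in all 16 alternatives, and the dimmer probes of Insr and Akt1 had -0.01 and -0.80. With 75th percentile scaling, Pik3ca minus Pik3r1 turned from -0.05 to 0.01. With the methods' t-test, Igf1r was at 1.13 with an adjusted p of 0.05658, 1389 genes and 1 member were called, and FOXO targets had 1 higher and 0 lower. With the replicate block, FOXO targets had 2 lower, 2762 genes were called, and no call of a member or of a pathway gene named in the report changed. With each array left out, Igf1r ranged from 1.01 to 1.35, Akt1 from -0.82 to -0.64, Irs1 from -0.48 to -0.30, Pik3ca from 0.28 to 0.41 and Pik3r1 from 0.25 to 0.65. The count of genes called ranged from 515 (without KO3) to 3070 (without WT1), that of members from 0 to 4, and FOXO targets had 0 to 7 higher and 0 to 1 lower. Insr minus Igf1r ranged from -1.18 to -0.88, Akt1 minus Akt2 from -0.95 to -0.68 and Pik3ca minus Pik3r1 from -0.27 to 0.10, so the last has no settled direction. Foxo1 ranged from -0.09, without KO2, to 0.24. For these changes the cause was not tested. Saturation was absent, and Gab2 had only a bound in WT for want of signal over background.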
